A study of Rattus norvegicus with 13 samples.

Results

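The transcripts described here encode cytosolic translation initiation and elongation factors, with kinases, inhibitors and enzymes named after them, measured in the ventricular zone (VZ) of newborn rats. All are called translation factors below for short. They were chosen by name: every row of the deposited table whose gene name begins with Eif1 to Eif6, Eef1 or Eef2, or is Bzw1 or Bzw2, and whose mean over all pups was at least 10 normalized counts. This gave 62 transcripts, 1 row per gene, of the 14606 rows with that mean and 14716 rows in all, and no row with such a name fell below the minimum. Genes of the same families without a row, such as Eif2s3, Eif3e, Eif4b and Eef1d, were not analysed here. The study asked how low thyroid hormone during development alters the cells that line the ventricle. RNA was sequenced from the laser captured posterior VZ of male Long Evans pups on postnatal day 2, 1 pup per litter. The 7 control pups came from dams on untreated drinking water and were euthyroid, and the 6 exposed pups came from dams given 3 ppm propylthiouracil (PTU), an inhibitor of thyroid hormone synthesis, and were hypothyroid. The exposure reached the pups through their mothers, whose own hypothyroidism the labels call mild and the paper considers moderate. Because the captured tissue was sequenced in bulk, fewer cells of a type and less RNA per cell cannot be told apart.

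Translation begins when a small ribosomal subunit that carries the initiator tRNA is brought to the cap of an mRNA, scans to a start codon and is joined by the large subunit. eIF2 carries the tRNA, eIF3 and the eIF4 factors bring the subunit to the mRNA, eIF1 and eIF1A watch over the choice of start codon, and eIF5B joins the subunits. The elongation factors eEF1A and eEF2 then deliver each aminoacyl-tRNA and move the ribosome along. In neurons the form of eEF1A switches during maturation from eEF1A1 to eEF1A2. The mRNAs of many of these factors, like those of ribosomal proteins, start with a run of pyrimidines, called a 5′ terminal oligopyrimidine (TOP) tract, that lets mTORC1 control their translation.

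Between 22292421 and 43511582 reads were estimated to lie behind the values of the control pups and between 28413166 and 44387630 behind those of the PTU exposed pups (p = 0.851 in a two-sided exact permutation test). Of these reads, the 3 highest rows held 32.4 to 60.1% in control pups and 23.9 to 57.0% in PTU exposed pups. Of 8 VZ progenitor markers, all measured, 8 were lower in PTU exposed pups (5 with an unadjusted p under 0.05, against 16.3% of all rows, 8.11% higher and 8.2% lower), and their summed level was 73699 to 102847 normalized counts in controls and 61169 to 80981 in PTU exposed pups. Choroid plexus markers were present too. All 8 of them were lower (4 with an unadjusted p under 0.05), with sums of 50217 to 140555 in controls and 23308 to 100211 in PTU exposed pups. All 10 neuron markers were higher (5 with an unadjusted p under 0.05), with sums of 53514 to 77410 and 70288 to 122864. Endothelial markers (5 of 7 with a row), microglial markers (7) and oligodendrocyte precursor markers (5) gave 0, 1 and 1 unadjusted p under 0.05, and of 5 erythrocyte markers 1 had a row. No marker that had a row was at 0. The PTU exposed pup numbered 2 stood with the controls for several transcripts, and some values are also given without it. Because it was singled out after its values were seen, at transcripts where it resembles the controls, a larger difference without it follows from that choice and supports nothing.

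The 5 elongation factors all had higher means in PTU exposed pups, led by Eef1a2 and Eef1b2 with log2 fold changes of 0.60 and 0.42, as did Eef1e1 (0.44), a tRNA synthetase scaffold that bears an elongation factor's name. Of the factors of start codon selection, Bzw2, Eif1 and Eif1a had higher and Eif1b and Eif5b lower means, and the subunits of eIF3 and the eIF4 factors went both ways. No transcript passed the adjusted test. In limma, 0 of the 62 translation factors had an adjusted p of at most 0.05, against a background of 0% of all rows, and the lowest adjusted p was 0.122 among them and 0.0981 over all rows. The authors, using DESeq2, did report genes that differed between the same groups at an FDR of at most 0.05. The 0 called rows therefore hold for limma on the normalized values, and not for every method. An unadjusted p under 0.05 was found for 15 of the 62 (24.2%), against 16.3% of all rows. Of these 15, 11 were higher in PTU exposed pups and 4 were lower. Of the 2383 such rows among all 14606, 1185 were higher (8.11% of all rows) and 1198 lower (8.2%). Leaving out PTU exposed pup 2 raised the 15 to 23, and the share of all rows from 16.3 to 20.5%, and called 2 factors (Bzw2 and Eif3i) among 179 rows, and weighting pups by quality called 1 factor (Bzw2) among 40 rows. The median log2 fold change was 0.04 over the 62 and 0.0038 over all rows, and 34 of the 62 were higher and 28 lower. Scaling the pups to 1 common total instead moved the median of all rows to 0.20 and that of the translation factors to 0.24, and the 12 factors that then had an unadjusted p under 0.05 were all higher, as were 1584 of 1665 such rows. Directions below are relative to the scaling in the deposited values.

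**Figure D1:**
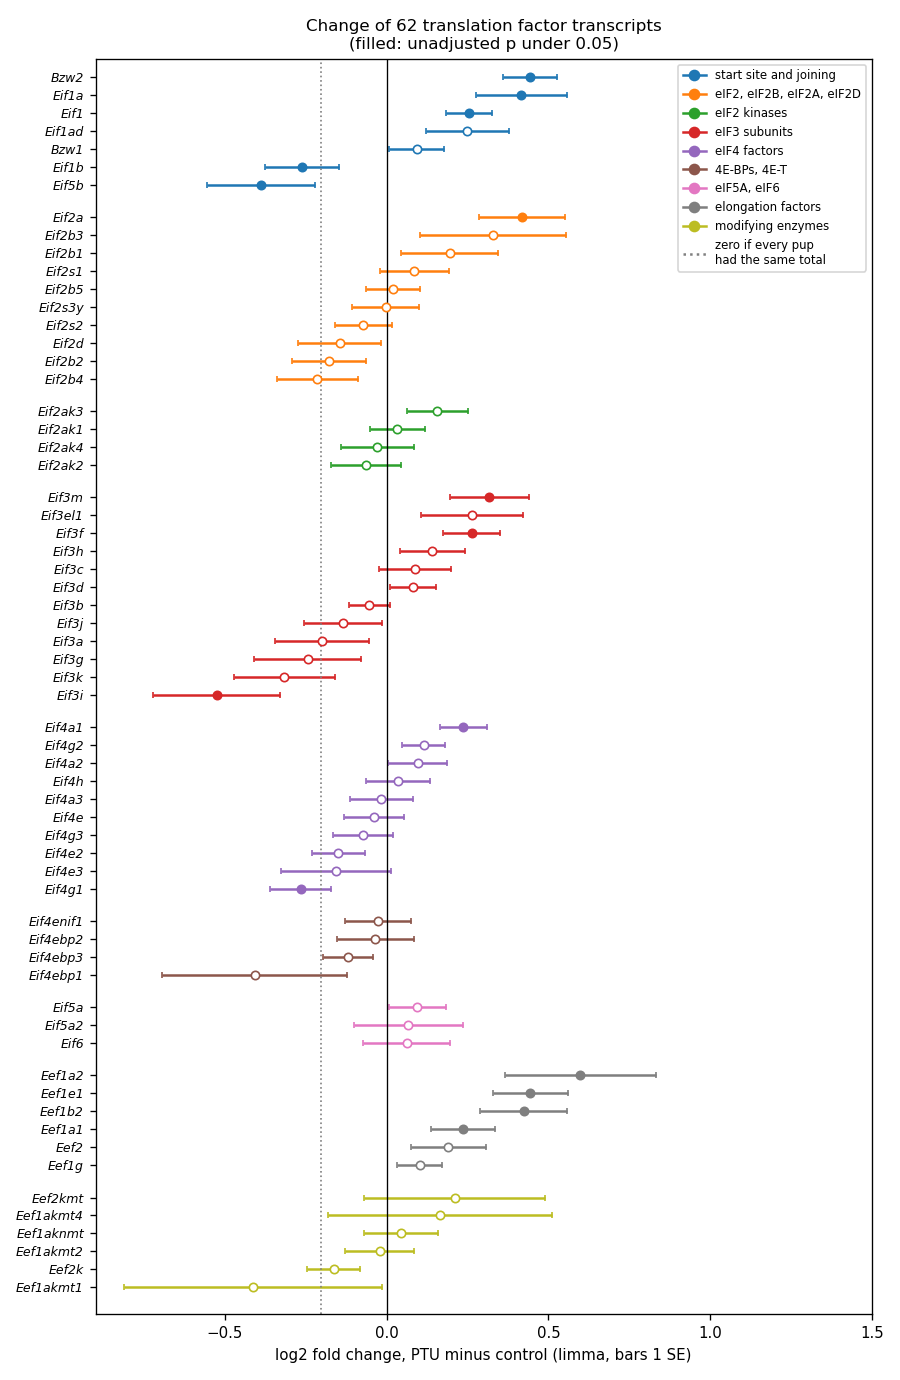
Log2 fold change (PTU exposed minus control) with 1 standard error for each of the 62 transcripts, grouped by role, with filled points for an unadjusted p under 0.05. The 6 rows drawn as elongation factors (Eef1e1 among them) all lie to the right of 0, from 0.10 to 0.60, and the 12 eIF3 subunits run from -0.53 to 0.32, and the dotted line marks where 0 would fall with 1 common total for all pups.

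Among the 7 factors of start codon selection and subunit joining, 5 had an unadjusted p under 0.05 (16.3% of all rows did), 3 of them higher (Bzw2, Eif1 and Eif1a) and 2 lower (Eif1b and Eif5b), and the median log2 fold change was 0.25. Bzw2 encodes an eIF5 mimic protein, which competes with eIF5 on the initiation complex. Its level was 1337 to 1817 normalized counts in controls (median 1662) and 2007 to 2367 in PTU exposed pups (median 2148). The groups did not overlap, with every PTU exposed pup above every control pup. Over all rows, 0.335% separated in this direction, and Bzw2 was 1 of 49 such rows and the only one of the 62 translation factors. Means were 1594 ± 168 (SD, n = 7) for the controls and 2162 ± 131 (SD, n = 6) for the exposed pups, and the log2 fold change was 0.44 (SE 0.083, limma adjusted p = 0.122), or 36.0% higher. The exact permutation test over the 1716 ways to divide the pups gave an unadjusted p of 0.000583, the smallest it can give. Over the alternatives its limma adjusted p ran from 0.032 (without PTU exposed pup 2) to 0.40 (1 common total for all pups), and only the former and weights for pup quality (0.038) brought it under 0.05. Its paralog Bzw1, also an eIF5 mimic, had 5055 to 7183 normalized counts in controls (median 5499) and 5321 to 6449 in PTU exposed pups (median 6190), and the groups overlapped throughout (log2 fold change 0.09, SE 0.085, limma adjusted p = 0.612).

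Eif1, which keeps the scanning ribosome from stopping at a wrong codon, had 2150 to 2510 normalized counts in controls (median 2226) and 2358 to 2918 in PTU exposed pups (median 2748). All but 1 of the PTU exposed pups lay above the highest control, and the log2 fold change was 0.25 (SE 0.071, limma adjusted p = 0.143). Eif1a, the partner of eIF1 on the small subunit, had 311 to 573 in controls (median 441) and 518 to 797 in PTU exposed pups (median 567). The groups overlapped through the highest control alone, and the log2 fold change was 0.42 (SE 0.14, limma adjusted p = 0.175). Eif1b, a second gene for an eIF1 protein, went the other way, with 2056 to 2897 normalized counts in controls (median 2356) and 1674 to 2727 in PTU exposed pups (median 1834). Of the 6 PTU exposed pups, 4 were below the lowest control, while pup 2 was the highest of its group. The log2 fold change was -0.26 (SE 0.11, limma adjusted p = 0.273), and -0.36 without that pup. Eif5b, the GTPase that joins the subunits, had 2249 to 4505 in controls (median 3916) and 1788 to 3384 in PTU exposed pups (median 2891), and a log2 fold change of -0.39 (SE 0.17, limma adjusted p = 0.269). This was -0.19 with 1 common total for all pups and -0.61 in a fit that adjusted for choroid plexus markers. The groups shared much of their range, but all 6 PTU exposed pups were below the control mean. The remaining member of this role is Eif1ad, whose product resembles eIF1A.

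**Figure D2:**
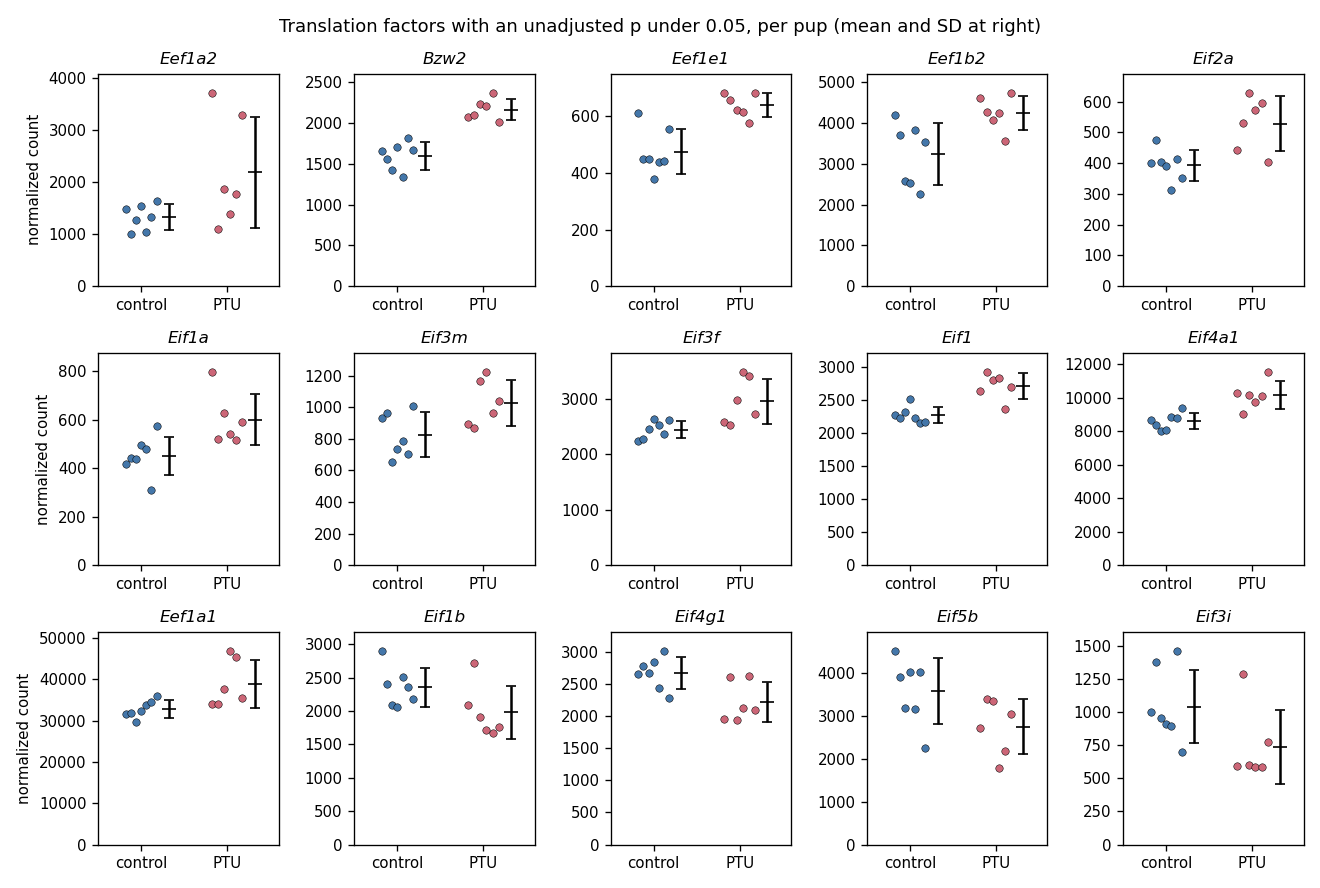
Normalized count of the 15 translation factors with an unadjusted p under 0.05, 1 point per pup (7 control, 6 PTU exposed), with the group mean and SD beside the points and axes that start at 0. The groups are apart for Bzw2 (highest control 1817, lowest PTU exposed pup 2007), and for Eif3i and Eif1b PTU exposed pup 2 lies highest of its group, above the control mean.

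The 10 subunits of eIF2, of its exchange factor eIF2B and of the alternative initiator tRNA carriers had a median log2 fold change of 0.0079, with 5 higher and 5 lower. Against 16.3% of all rows, 10% of these (Eif2a only) had an unadjusted p under 0.05. Eif2a encodes eIF2A, which can bring the initiator tRNA to some mRNAs without eIF2. Its level was 313 to 475 normalized counts in controls (median 401) and 402 to 628 in PTU exposed pups (median 552). Most PTU exposed pups (4 of 6) were above every control pup and the other two lay within the control range, giving a log2 fold change of 0.42 (SE 0.13, limma adjusted p = 0.167). Eif2s2, the beta subunit of eIF2 and the row with the highest mean of this role, had a log2 fold change of -0.07 (SE 0.088, limma adjusted p = 0.712). Eif2s3y, the gamma subunit encoded on the Y chromosome, had 659 to 973 in controls (median 771) and 681 to 888 in PTU exposed pups (median 776). The range of the PTU exposed pups fell inside that of the controls (log2 fold change -0.0029, SE 0.10, limma adjusted p = 0.993). The other members, Eif2s1, Eif2b1 to Eif2b5 and Eif2d, lay between -0.21 and 0.33 on the log2 scale.

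The 4 kinases that phosphorylate eIF2 alpha and so lower initiation under stress gave no unadjusted p under 0.05. Eif2ak3 (PERK, the kinase of endoplasmic reticulum stress) had 892 to 1142 normalized counts in controls (median 925) and 963 to 1253 in PTU exposed pups (median 1086), which overlapped (log2 fold change 0.16, SE 0.094, limma adjusted p = 0.413). For Eif2ak1 (HRI, sensitive to heme), Eif2ak2 (PKR, sensitive to double-stranded RNA) and Eif2ak4 (GCN2, sensitive to uncharged tRNA), the log2 fold changes were 0.03, -0.06 and -0.03, and each was within 1 standard error of 0.

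The eIF3 subunits held transcripts of both directions. eIF3 is the large complex that binds the small subunit and the eIF4 factors. Of 12 subunits or subunit-like rows, 2 were higher (Eif3f and Eif3m) and 1 lower (Eif3i) with an unadjusted p under 0.05. This was 25%, against 16.3% of all rows (8.11% higher and 8.2% lower), and the median log2 fold change was 0.01. Eif3f had 2240 to 2638 normalized counts in controls (median 2453) and 2536 to 3482 in PTU exposed pups (median 2856). Its 2 lowest PTU exposed pups lay within the control range and 4 above it (log2 fold change 0.26, SE 0.088, limma adjusted p = 0.175). Eif3m had 653 to 1010 in controls (median 789) and 870 to 1222 in PTU exposed pups (median 1002), with 3 PTU exposed pups above every control (log2 fold change 0.32, SE 0.12, limma adjusted p = 0.225).

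Eif3i encodes a subunit of the eIF3 core that binds eIF3b. In controls it had 999, 1382, 957, 909, 897, 1461 and 700 normalized counts in pups 1 to 7. In PTU exposed pups 1 to 6 it had 593, 1293, 603, 585, 584 and 772. Pups 1, 3, 4 and 5 of the PTU exposed group were below every control, pup 6 was within the control range, and pup 2 stood near the highest controls. The log2 fold change was -0.53 (SE 0.20, limma adjusted p = 0.210) with pup 2 and -0.70 (limma adjusted p = 0.045, no independent support) without it. Eif3g and Eif3k, named here after their values were seen, had the same high pup. Eif3g had 1543 to 2292 normalized counts in controls, 2474 in PTU exposed pup 2 and a median of 1247 over the PTU exposed pups. Eif3k had 1589 to 2735 in controls, 2664 in PTU exposed pup 2 and a median of 1456. Without pup 2 the log2 fold change went from -0.24 to -0.39 for Eif3g and from -0.32 to -0.46 for Eif3k. Eif3a, the largest subunit, had 11927 to 20480 in controls (median 17986) and 10319 to 18331 in PTU exposed pups (median 15921), and the ranges overlapped broadly (log2 fold change -0.20, SE 0.14, limma adjusted p = 0.499, and -0.10 without PTU exposed pup 4). In a fit that adjusted for choroid plexus markers the log2 fold change of Eif3a was -0.38 (limma adjusted p = 0.274). The remaining rows of this role, Eif3b, Eif3c, Eif3d, Eif3el1, Eif3h and Eif3j, ran from -0.14 to 0.26.

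**Figure D3:**
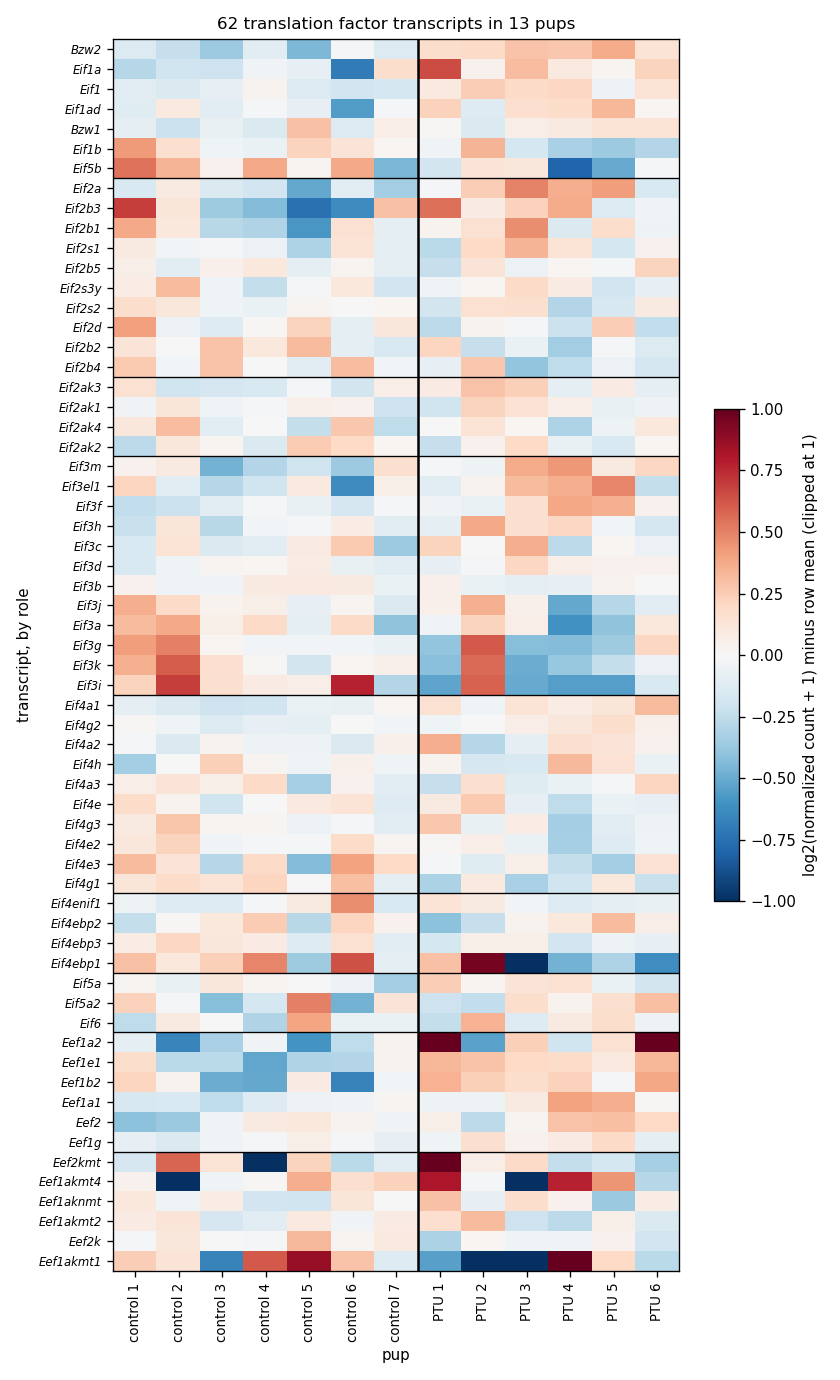
Log2(normalized count + 1) of the 62 translation factors (rows, by role) in 13 pups (columns, 7 control then 6 PTU exposed), each as the difference from its row mean, clipped at 1. Bzw2 and Eef1e1 have positive differences in all 6 PTU exposed pups, and in the column of PTU exposed pup 2 the rows Eif3g, Eif3k and Eif3i are positive where the other PTU exposed pups are mostly negative.

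The 10 rows grouped by name with the factors that bind the cap, scaffold the complex and unwind the mRNA were 4 higher and 6 lower. Their median log2 fold change was -0.03, and the grouping does not show that each has such a role. Eif4a1, the helicase of the complex, had 8043 to 9416 normalized counts in controls (median 8661) and 9018 to 11544 in PTU exposed pups (median 10157). All but 1 of the PTU exposed pups were above the highest control, and the log2 fold change was 0.24 (SE 0.072, limma adjusted p = 0.156). Its paralog Eif4a2 had 2841 to 3257 in controls (median 3039) and 2578 to 4030 in PTU exposed pups (median 3334), so that the wider PTU range enclosed that of the controls (log2 fold change 0.10, SE 0.091, limma adjusted p = 0.624). Its log2 fold change was 0.035 without PTU exposed pup 1, 0.16 without pup 2 and 0.0092 with the neuron marker score described below as a covariate. Eif4g1, the scaffold that joins cap binding protein, helicase and eIF3, was lower. It had 2277 to 3012 in controls (median 2678) and 1947 to 2622 in PTU exposed pups (median 2111). Among PTU exposed pups 4 were below every control, and the other two, pups 2 and 5, were close to the control median (log2 fold change -0.27, SE 0.094, limma adjusted p = 0.189, and -0.31 without pup 2). Eif4g2, a scaffold that works without the cap binding protein, had 10335 to 11486 in controls (median 11069) and 11048 to 12879 in PTU exposed pups (median 11851). Its log2 fold change was 0.11 (SE 0.066, limma adjusted p = 0.392), and all 6 PTU exposed pups were above the control mean. Eif4e, the cap binding protein itself, had 1720 to 2239 in controls (median 2022) and 1661 to 2362 in PTU exposed pups (median 1878), with a log2 fold change of -0.04 (SE 0.091, limma adjusted p = 0.864). The other members, Eif4a3, Eif4e2, Eif4e3, Eif4g3 and Eif4h, lay between -0.16 and 0.03.

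The transcripts of the proteins that sequester eIF4E were all lower in mean, none with an unadjusted p under 0.05, and their median log2 fold change was -0.08. Eif4ebp1 had 103 to 205 normalized counts in controls (median 156) and 58 to 258 in PTU exposed pups (median 101). PTU exposed pup 2 had the highest value of all pups and pup 3 the lowest (log2 fold change -0.41, SE 0.29, limma adjusted p = 0.488), and the log2 fold change was -0.64 without pup 2 and -0.22 without pup 3. For Eif4ebp2 and Eif4ebp3 the log2 fold changes were -0.04 (SE 0.12) and -0.12 (SE 0.078), and their directions turned with 1 common total for all pups, to 0.17 and 0.08. The fourth row, Eif4enif1, encodes the protein that carries eIF4E into the nucleus.

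The elongation factors had higher means throughout. All 5 had a positive log2 fold change with a median of 0.24, and 3 of them (Eef1a1, Eef1a2 and Eef1b2) had an unadjusted p under 0.05, against 16.3% of all rows. With Eef1e1, which is grouped here by its name, it was 4 of 6 and the median 0.33. Eef1a1, the main eEF1A of dividing cells, had 29644 to 35984 normalized counts in controls (median 32256) and 34065 to 46829 in PTU exposed pups (median 36600). Every PTU exposed pup was above the control mean, and pups 4 and 5 were far above the rest (log2 fold change 0.24, SE 0.10, limma adjusted p = 0.264). Eef1b2, a subunit of the complex that recharges eEF1A with GTP, had 2272 to 4201 in controls (median 3547) and 3576 to 4744 in PTU exposed pups (median 4257). The control pups fell into a low and a high set, and the high set overlapped with the PTU exposed pups (log2 fold change 0.42, SE 0.14, limma adjusted p = 0.171). Eef1e1, which despite its name is a scaffold protein of the multi-tRNA synthetase complex, had 377 to 612 in controls (median 449) and 578 to 682 in PTU exposed pups (median 640). A single control pup reached into the range of the PTU exposed pups (log2 fold change 0.44, SE 0.12, limma adjusted p = 0.133). Eef2, the translocase, had 21140 to 30316 in controls (median 27502) and 23422 to 34651 in PTU exposed pups (median 30847), and overlapped (log2 fold change 0.19, SE 0.12, limma adjusted p = 0.420). The fifth, Eef1g, another subunit of the exchange complex, had the smallest of these differences, 0.10. eEF1A1 has many near-identical processed copies in mammalian genomes, so the reads given to Eef1a1 may include some of theirs.

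Eef1a2, the eEF1A of neurons and muscle, had the largest log2 fold change of the 62 translation factors. In control pups 1 to 7 it had 1492, 1006, 1265, 1547, 1048, 1330 and 1628 normalized counts. In PTU exposed pups 1 to 6 it had 3715, 1098, 1872, 1380, 1767 and 3286. Pups 1 and 6 stood far above all others, pups 3 and 5 a little above the highest control, and pups 2 and 4 within the control range. The log2 fold change was 0.60 (SE 0.23, limma adjusted p = 0.230), and 0.42 to 0.77 with single pups left out. The neuron marker score, the mean over the 10 neuron markers of log2 values centred on their row means, was also highest in these pups, at 1.55 in pup 1 and 0.62 in pup 6, against -0.93 to 0.26 in controls. With that score as a covariate, the log2 fold change of Eef1a2 was 0.16 (limma adjusted p = 0.700), 26.4% of the value without it. The same covariate left 96.1% of the log2 fold change of Bzw2 (0.43, limma adjusted p = 0.386), 65.7% of that of Eif1a and 126% of that of Eef1a1. The part of neuron content in the level of Eef1a2 was not tested beyond this covariate. The rows whose group-centred values over the 13 pups were most like those of Eef1a2 were a row without a gene name (Pearson's r = 0.985), Tenm2 (0.966), Bcat1 (0.964), Agap2 (0.962) and Elfn2 (0.962), given as a description of rows that share libraries.

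**Figure D4:**
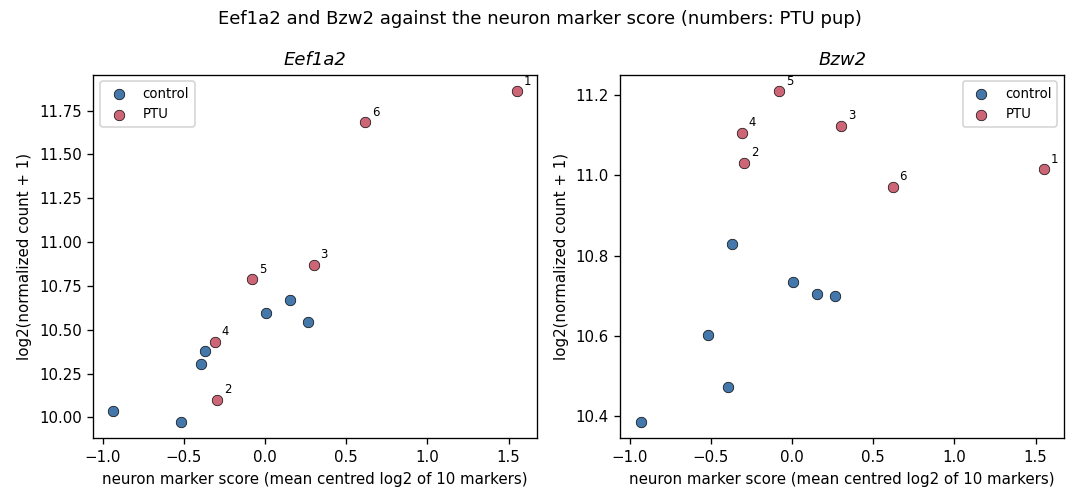
Log2(normalized count + 1) of Eef1a2 (left) and Bzw2 (right) against the neuron marker score, 1 point per pup with PTU exposed pups numbered. Eef1a2 is highest in the 2 pups with the highest scores (1.55 and 0.62), whereas every PTU exposed pup lies above every control for Bzw2 whatever its score.

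The 6 enzymes that modify elongation factors gave no unadjusted p under 0.05 and a median log2 fold change of 0.01. Eef2k, the kinase that stops eEF2 by phosphorylation, had 2190 to 2779 normalized counts in controls (median 2262) and 1784 to 2286 in PTU exposed pups (median 2155). In the PTU exposed group 4 pups were below every control, and all 6 were below the control mean (log2 fold change -0.16, SE 0.082, limma adjusted p = 0.328). With the neuron marker score as a covariate it was -0.06. Eef1akmt1, a lysine methyltransferase of eEF1A, had the largest difference of this role (-0.41, SE 0.40, limma adjusted p = 0.629), but as few as 17.0 estimated reads lay behind its lowest value and the difference was about as large as its error. It was -0.24 without PTU exposed pup 2 or pup 3, -0.75 without pup 4 and -0.14 in a fit that adjusted for choroid plexus markers. Its relatives Eef1akmt2, Eef1akmt4, Eef1aknmt and Eef2kmt lay between -0.02 and 0.21. The 3 rows of eIF5A and eIF6 had differences from 0.06 to 0.09, within about 1 standard error. Eif5a, which keeps the ribosome moving through difficult peptide bonds, had 3122 to 4281 in controls (median 3983) and 3486 to 4709 in PTU exposed pups (median 4184), and its paralog Eif5a2 had 219 to 432 and 256 to 375. Eif6, which holds the large subunit apart from the small, completed this role.

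Paralogs were next compared within each pup, as the log2 ratio of their normalized counts (each + 1), which the scaling of the pup hardly moves. Of 7 pairs chosen, 6 could be computed, and p-values of the exact permutation test were adjusted over these 6. The ratio of Eif1b to Eif1 fell. It was -0.29 to 0.35 in controls and -0.72 to -0.10 in PTU exposed pups, and the groups differed by -0.52 (p = 0.0035 by the two-sided exact permutation test, 0.0175 when adjusted), with all 6 PTU exposed pups below the control mean and pup 2 alone within the control range. The ratio of Bzw2 to Bzw1 rose. It was -2.42 to -1.55 in controls and -1.68 to -1.35 in PTU exposed pups, and the groups differed by 0.35 (p = 0.00583 by the two-sided exact permutation test, 0.0175 when adjusted). All 6 PTU exposed pups were above the control mean, though the groups overlapped. Control pup 5 had the lowest ratio, -2.42, and without any single pup the difference stayed between 0.25 and 0.40. These pairs hold transcripts already described, so that the ratios add the comparison within pups and not an independent observation. For Eef1a2 to Eef1a1 the difference was 0.36 (exact permutation test adjusted p = 0.367), for Eif4g3 to Eif4g1 it was 0.19 (exact permutation test adjusted p = 0.295), for Eif4a2 to Eif4a1 it was -0.14 (exact permutation test adjusted p = 0.274) and for Eif5a2 to Eif5a it was -0.03 (exact permutation test adjusted p = 0.897). Single pups moved some of these: the difference of Eef1a2 to Eef1a1 was 0.15 without PTU exposed pup 1 and 0.19 without pup 6, and that of Eif4g3 to Eif4g1 was 0.097 without pup 1. Reads that match both paralogs were divided between them by the authors' counting, so a ratio of near-identical transcripts rests on that division.

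**Figure D5:**
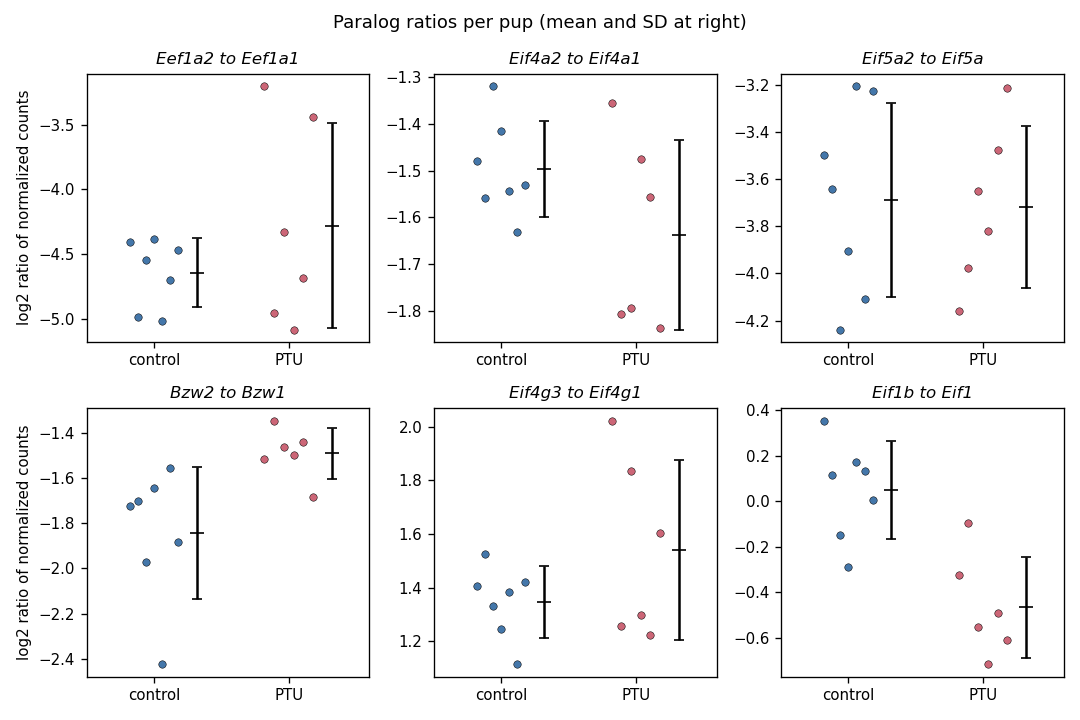
Log2 ratio of the normalized counts of 6 paralog pairs, 1 point per pup, with mean and SD beside the points and a separate vertical scale for each pair. The ratio of Eif1b to Eif1 is lower in PTU exposed pups (difference -0.52) and that of Bzw2 to Bzw1 is higher (difference 0.35), while the points of the other 4 pairs are mixed.

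The transcription start windows of these genes were examined for the pyrimidine run of a TOP mRNA. The windows are RefSeq's, on the GRCr8 assembly, while the reads were aligned to another build, so they show where RefSeq places the start and not where transcription began in these pups. Of the 62 factors 57 had a window, with 60 windows among them. A run was counted where a C within 10 bases of the start was followed by at least 6 bases that were each C or T, on the strand of the gene. It was found in 10 of the 60 windows (16.7%), in 3746 of 33469 windows of all genes (11.2%) and in 72 of 261 windows of ribosomal protein genes (27.6%). A counted run may lie before the RefSeq start, and so outside the mRNA that RefSeq gives. That of Eef1akmt2 did, and those of Eef1e1 and Eif4h reached the start with only their last base. The rule was set after the changes of these transcripts were known, so the following is a description. Of the 10 factors with a run, 7 had an unadjusted p under 0.05, all higher, and the median log2 fold change was 0.26, whereas of the 47 without one 8 had such a p, 4 higher and 4 lower, and the median was -0.0029. The split depends on how far the reach extends. Within 5 bases, also chosen later, 7 factors had a run (6.21% of all windows). Of these 7, 6 had an unadjusted p under 0.05, all higher, and their median was 0.26, against 0.0079 for the 50 without. Within 15 bases, chosen later, 17 factors had a run (16.0% of all windows), among them Eif3i, Eif3k and Eif1b, and 9 of these had an unadjusted p under 0.05, 7 higher and 2 lower. Their median was then 0.08, against 0.03 for the 40 without. Eef2 and Eef1g, whose mRNAs are known TOP mRNAs, had no run within 10 bases of the RefSeq start. Over all named rows, those with a run had a median of 0.0076 and 16.8% with an unadjusted p under 0.05, and those without had -0.0054 and 16.0%. The other factors with a run were Eif4h, Eef1akmt2 and Eef1akmt1. The windows of the 7 are shown from 15 bases before the start to 14 after its first base, with the run in capitals, cut where the window ends, followed by those of Bzw2 and Eef1a2, which had none.
Eef1e1, chr17:26354232-26354261, plus strand: caggctccgCCCCCCTaggagctgggccag
Eif1, chr10:85747122-85747151, plus strand: tacaggcgccgCCCCTCCgccccagtcact
Eif2a, chr2:144911345-144911374, plus strand: ccagcgcatgggtttCTCTTTCCgggacaa
Eif3f, chr1:172369047-172369076, plus strand: tcacgcccttccgttctagCCTCTCTCTTT
Eef1b2, chr9:72074076-72074105, plus strand: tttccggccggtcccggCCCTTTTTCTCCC
Eef1a1, chr8:88225055-88225084, minus strand: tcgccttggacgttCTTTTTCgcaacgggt
Eif3m, chr3:111897179-111897208, minus strand: cgtaacaccgtgtggtaccgCTCCTTTTCC
Bzw2, chr6:58615870-58615899, minus strand: gctacgccgggttccgtgtgtctgtgtcaa
Eef1a2, chr3:188652619-188652648, minus strand: cgctcgggtacatctctgcagctgcgtcct
A list of factors whose mRNAs are known to carry a TOP tract, drawn up from textbook knowledge and not from the windows, had 6 of its 9 genes measured. All 6 were higher, as were 7403 of all 14606 rows, with a median log2 fold change of 0.21. Of the 6, 3 (Eif3f, Eef1b2 and Eef1a1) had an unadjusted p under 0.05, against 16.3% of all rows. The 6 belong to the 62 factors and these 3 to the 7 with a run, so this list of TOP mRNAs is no independent observation. The cytosolic ribosomal proteins, whose mRNAs are the best known of this class, had 100 rows with a median of 0.15, and 29 of them (29.0%, against 16.3% of all rows) had an unadjusted p under 0.05, 27 higher (background 8.11%) and 2 lower (background 8.2%). Among ribosomal protein genes with a window the run did not go with higher values: the median was 0.05 for the 35 with a run, of which 18 were higher, and 0.13 for the 39 without, of which 31 were higher.

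In the other steps of the pathway no gene passed the adjusted test, and the shares with an unadjusted p under 0.05 in the lists below, 0 to 12.5%, were not above the 16.3% of all rows. Among 8 factors of termination, ribosome recycling and rescue, 1 had an unadjusted p under 0.05: Gspt2, a second eRF3 gene, had 108 to 265 normalized counts in controls and 186 to 472 in PTU exposed pups (log2 fold change 0.50, SE 0.23, limma adjusted p = 0.30). Pabpc1, the main cytosolic poly(A) binding protein, differed by 0.05 (SE 0.094). In the mTORC1 pathway, 1 of 12 rows had an unadjusted p under 0.05. This was Tsc1, an inhibitor of the pathway, with 862 to 1170 in controls and 979 to 1558 in PTU exposed pups (log2 fold change 0.30, SE 0.11, limma adjusted p = 0.199). For Mtor, the kinase itself, the log2 fold change was 0.12 (SE 0.079).

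The 10 measured genes of the integrated stress response, which eIF2 alpha phosphorylation sets off, gave no unadjusted p under 0.05 and a median of -0.03. Atf4, its transcription factor, had 2482 to 2983 normalized counts in controls and 2172 to 3123 in PTU exposed pups (log2 fold change -0.14, SE 0.085, limma adjusted p = 0.432). The 8 enzymes of hypusine and diphthamide, modified residues of eIF5A and eEF2, gave 0 such rows, as did the 9 mitochondrial translation factors. Of 18 cytosolic tRNA synthetases and scaffold proteins measured, 2 were higher with an unadjusted p under 0.05. Lars1, which charges leucine tRNA, had 1383 to 1697 in controls and 1627 to 1918 in PTU exposed pups (log2 fold change 0.23, SE 0.078, limma adjusted p = 0.175), and Rars1, which charges arginine tRNA, had a log2 fold change of 0.24 (SE 0.098, limma adjusted p = 0.258).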

How the data were processed

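Total RNA libraries were made from microdissected VZ. The authors reported that this RNA was partly degraded, while RNA of hippocampal cells from the slides was intact. Per the labels and methods, the authors trimmed the reads with Trimmomatic, aligned them with STAR 2.7.8a to mRatBN7.2 (rn7), assigned them to transcripts by Partek's E/M method, which splits reads that match several, and scaled the pups by median ratios. What they deposited is thus a normalized signal that is never negative, not raw counts. The authors' DESeq2 columns (p-value, FDR, ratio, fold change and group means) were not used. The methods name a RefSeq annotation, while 14466 of the rows carry Ensembl transcript identifiers.

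The rows whose mean reached 10 were compared on the log2(normalized count + 1) scale, which understates differences of low rows, with limma 3.58.1 in R 4.3.3 (variance trend, Benjamini-Hochberg adjusted p, threshold 0.05). Single values and paralog ratios were compared with exact permutation tests (two-sided). Reads behind the values were estimated from the step between low values. Between 88.1 and 89.7% of them were whole multiples of it (tolerance 0.02), short of the 95% set as a minimum, so no model of counts was used. The limma script was tested on simulated data. P-values measure the spread between pups of separate litters. Tables were handled in pandas 2.3.3 and numpy 2.4.6, exact tests in scipy 1.17.1 and plots in matplotlib 3.10.9 (Python 3.11.15).

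The transcripts, lists and tests were chosen with earlier results of these data known. Named are the factors with an unadjusted p under 0.05, in each role the highest row and the largest difference, and a short list of names. The marker, pathway and role lists were written from general knowledge. Alternatives were pseudocounts of 0.1 and 10, no filter, a mean of at least 100, the same total per pup with and without the 3 highest rows, quantile normalization, the replicate block, array quality weights, a fit without the variance trend, neuron or choroid plexus marker scores as covariates, rows of each gene summed, and each pup left out. The pair of Eif2s3y with Eif2s3 was not analysed here. The result of 1 pathway gene is left out.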

Additional observations from a re-analysis of the deposited data

Results flagged for a closer look

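Of 68 groups tested (34 named factors in 2 treatments), 3 held a pup whose value lay far from the others of its group, and chance alone gives about 1 such flag in 20 groups. Eif3i had 1293 normalized counts in PTU exposed pup 2, against 772 in the next highest pup of that group. Eef2k had 2779 in control pup 5, against 2399 in the next highest control. Eif5a had 3122 in control pup 7, the lowest control, against 3772 in the next lowest.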

How the results depend on the processing

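The count of 15 translation factors with an unadjusted p under 0.05 was 12 to 21 over the 13 alternatives other than leaving out a pup, while the share of all rows moved too, from 16.3% to 9.81 to 20.2%. It was 12, all higher, with the same total per pup (11.4% of all rows), 12 (11 higher, 1 lower) with the neuron marker score as a covariate (9.81%) and 21 with the choroid plexus score (14.2%). With the same total per pup the median moved to 0.24, and 9 log2 fold changes of the 34 named factors turned positive: Eef2k 0.038, Eif4ebp3 0.082, Eif3a 0.00067, Eif2s2 0.13, Eif2ak2 0.14, Eif4e 0.16, Eif2ak4 0.17, Eif4ebp2 0.17 and Eif2s3y 0.20. Near 0, among the named factors, the sign also turned for Eif2s3y (0.00258) with the same total without the 3 highest rows, for Eif2ak4 (0.00054) and Eif2s3y (0.049) with array weights, for Eif2ak2 (0.028), Eif4ebp2 (0.031) and Eif2s3y (0.034) with the neuron marker score, and for Eif2s3y (0.0094) with the choroid plexus marker score. Array weights called 40 rows, 1 of them a translation factor (Bzw2), and the choroid plexus score called 4 rows. For the pyrimidine run, reaches of 5, 15 and 20 bases, added after seeing the data, gave medians of 0.26, 0.081 and 0.093 with a run. The cause was not tested.

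Replicate numbers belong to pups of different litters and were for that reason not taken to pair the pups. The deviations of pups with the same number correlated at -0.07 to 0.20, with 3 of 6 control pups closest to their own number. Whether pups with the same number share a structure was not tested. With the replicate block, 18 rows and 0 translation factors were called and 18 factors had an unadjusted p under 0.05 (20.2% of all rows). In the block of 6 pairs, the ratio of Bzw2 to Bzw1 differed by 0.34 (exact sign-flip permutation p = 0.0625, smallest possible 0.0313) and that of Eif5a2 to Eif5a by 0.049 (exact sign-flip permutation p = 0.875).

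Leaving out single pups gave 0 to 179 called rows, 0 to 2 called translation factors and 12 to 23 with an unadjusted p under 0.05 (12.3 to 20.5% of all rows). The highest values came without PTU exposed pup 2, where Bzw2 and Eif3i were called, and without control pup 6 there were 7 called rows. Among the 34 named factors and the ratios, the ranges that crossed 0 were -0.0079 to 0.076 for Eif2ak1, -0.074 to 0.030 for Eif2ak4, -0.043 to 0.050 for Eif2s3y, -0.095 to 0.0065 for Eif4e, -0.10 to 0.043 for Eif4ebp2, -0.0063 to 0.16 for Eif5a2 and -0.13 to 0.061 for the ratio of Eif5a2 to Eif5a. The ratio of Eif4a2 to Eif4a1 ran from -0.20 to -0.10, with an unadjusted exact permutation p of 0.0404 without PTU exposed pup 1. For the fewest reads (Eef1akmt1, 17.0), depth limits the precision.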
